A study of Mus musculus with 2 samples.

Results

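The distal part of the imprinted Dlk1-Dio3 cluster of mouse chromosome 12, from Mir379 to just past Mir410, was described in embryonic heart. Its rows were all genes of the deposited miRNA tables that GENCODE M21 places on mm10 chromosome 12 between 109.7 and 109.76 Mb, on either strand. There were 38 such rows of 1973. The samples were hearts of healthy B6NCrl mouse embryos at 13.5 days, with tissue of males and females pooled. MicroRNA-seq of a small RNA size fraction gave 2 libraries (n = 2), called biological replicates 1 and 2 in the labels, each from its own biosample. The design holds 1 group and no second condition, so the libraries can be compared only with each other. A whole heart contains muscle, vessel, valve and blood cells, and fewer cells of a type cannot be told apart from less RNA per cell.

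The Dlk1-Dio3 domain is imprinted: its noncoding RNAs and miRNAs are made from the maternal chromosome and protein-coding genes such as Dlk1 and Rtl1 from the paternal one. The miRNAs lie in a tandem array that is found in placental mammals and is known from the brain, embryonic tissues and placenta. In muscle and neurons its transcription is known to depend on MEF2 factors. Each hairpin is cut out of a long primary transcript and processed to a mature strand from its 5′ arm (5p), its 3′ arm (3p) or both. Bases 2 to 8 of a mature strand, the seed, do most of the pairing with target messages.

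RefSeq entries on GRCm38.p6, the build also called mm10, gave a mature sequence for 37 of the 38 rows and a hairpin for 35. The 69 mature sequences carried 64 different seeds, and 5 seeds occurred in a pair of rows. Some rows, among them Mir487b, Mir376c, Mir539 and Mir485, have a mature strand from only the 5p or only the 3p arm in these entries. Pairs through an unlisted arm are therefore missed. The pairs found are shown because there different rows of the cluster make miRNAs with a common seed, given in capitals from 5′ to 3′.
miR-379-5p: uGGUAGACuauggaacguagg
miR-1193-5p: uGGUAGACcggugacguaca
miR-379-3p: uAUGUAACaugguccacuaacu
miR-411-3p: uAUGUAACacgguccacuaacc
miR-494-5p: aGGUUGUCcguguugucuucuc
miR-410-5p: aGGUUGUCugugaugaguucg
miR-758-5p: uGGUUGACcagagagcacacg
miR-1197-5p: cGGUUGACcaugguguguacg
miR-496a-5p: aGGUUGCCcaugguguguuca
miR-453: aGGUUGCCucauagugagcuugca
The 3p arms of Mir379 and Mir411 differed at 2 positions of their whole length. The remaining rows had a seed that no other row of the cluster carried in these entries, and 10 seeds also occurred in miRNAs outside the window, such as miR-362-3p for the seed of miR-329-3p.

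A short run of bases recurred among the hairpins. The bases UUCGCUU, read on the strand of the hairpin only, occurred in 10 of 35 hairpins of the cluster (28.6%) and in 2 of 968 other mouse hairpins (0.207%). None of the 20 hairpins of the proximal Dlk1-Dio3 part held it. The motif was picked after the hairpins had been looked at, so the shares are a description. Hairpins of a high row (Mir369), a medium row (Mir154) and a low row (Mir410) are shown with the motif in capitals. In 9 of the 10 hairpins the motif began inside the annotated 5p strand, sharing its last 3 to 5 bases, and ran on past its end, and in Mir329 it lay before the first mature strand.
Mir369: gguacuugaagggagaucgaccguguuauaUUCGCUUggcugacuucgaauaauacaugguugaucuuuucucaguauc
Mir154: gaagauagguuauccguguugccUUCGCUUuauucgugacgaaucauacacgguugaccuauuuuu
Mir410: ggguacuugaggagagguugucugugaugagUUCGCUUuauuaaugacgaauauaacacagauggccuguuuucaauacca
The 10 rows with the motif ran from 55.6 CPM (Mir410) to 7566 CPM (Mir487b). The median was 337 CPM with the motif and 152 CPM in the 25 hairpins without it. Those 25 include Mir1197, Mir654 and Mir453, which lay below 10 CPM. A link between motif and level was not tested.

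Replicate 1 held 5569959 sense counts and replicate 2 held 6039005. Levels are counts per 1000000 (CPM) of these totals, and 1 count was worth 0.180 CPM in replicate 1 and 0.166 CPM in replicate 2. The heart muscle miRNAs Mir208a, Mir208b and Mir499 summed to 50718 and 53387 CPM. Other muscle miRNAs, outside this list, were low. Mir1a-1 held 4.49 and 3.64 CPM, Mir133a-1 1.97 and 3.81 CPM, Mir133b 3.77 and 2.82 CPM, and Mir133a-2 0 CPM in both. Whether their reads mapped to several places was not tested. Mir126a, listed for endothelium, held 74876 and 66025 CPM, and Mir143 and Mir145a, listed for smooth muscle, summed to 85136 and 93532 CPM. The erythroid miRNAs Mir451a and Mir144 summed to 1159 and 897 CPM. Of the leukocyte miRNAs, Mir223 held 441 and 310 CPM, and Mir142 has no row. Neural miRNAs matter here because the cluster is well known from neurons. The 12 of 13 listed neural miRNAs with a row, miR-124, miR-9, miR-128 and miR-137 among them, had sums of 266 and 202 CPM. All 3 rows of Mir124a and the row of Mir9-2 held 0 counts. The copies of each of these miRNAs make the same mature strand, so their reads could lie in the multi-mapping class, which was not tested. Mir137, at 83.1 and 52.7 CPM, and Mir128-1, at 99.3 and 89.7 CPM, held most of the neural sum. Their part in the levels of the cluster was not tested. Mir122, the liver miRNA, held 201 and 591 CPM.

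The cluster's counts equalled 4.10% of summed sense counts in replicate 1 (exact Clopper-Pearson 95% interval 4.08 to 4.11). In replicate 2 they equalled 3.77% (3.75 to 3.78). The mean was 3.93% ± 0.233 (SD, n = 2), and 3.17% with the sense counts of every row. The cluster's counts include those opposite to 4 minus-strand rows, which the sum of sense counts leaves out. The intervals treat them as part of that sum and are therefore approximate. Nearly the whole array was measurable, with 32 of 38 rows (84.2%) at 10 CPM or more in both libraries, against 14.4% of all 1973 rows. Of all 1973 rows, 1278 held no count in either library, and 1 of these lay in the cluster. At 100 CPM or more in both were 22 rows of the cluster, and at 1000 CPM or more 10 rows. Levels were very uneven: the first 4 rows held 59.2% ± 0.0267 of the cluster's counts and the first 10 held 87.7% ± 0.413. The order was nearly the same in both libraries (Spearman's rho 0.996 over 38 rows, which share a library and are not replicates).

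**Figure D1:**
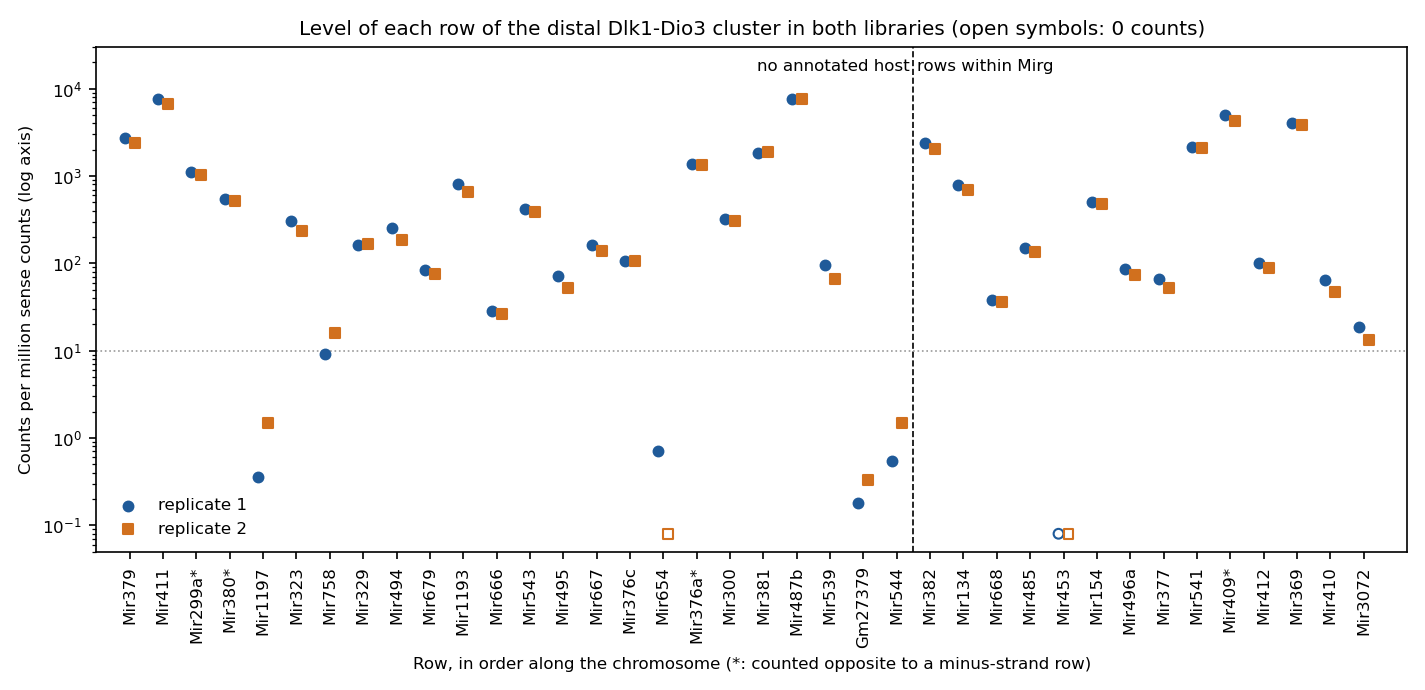
Level of each of the 38 rows in CPM on a log axis, in order along the chromosome, with replicate 1 as blue circles and replicate 2 as orange squares. High and low rows are interspersed on both sides of the dashed line that marks the first row within the host transcript Mirg. Open symbols stand for 0 counts and the dotted line for 10 CPM.

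Mir487b (ENSMUSG00000076219.1, chromosome 12, 109727333 to 109727414) was the highest row by mean. Known from work on vessel growth after ischaemia, it held 7558 CPM in replicate 1 and 7575 CPM in replicate 2 (7566 ± 11.9, SD, n = 2). Mir411 (109710175 to 109710256), the neighbour of Mir379, held 7619 and 6620 CPM (7120 ± 707). The 2 rows could not be ordered: Mir411 was higher in replicate 1 and Mir487b in replicate 2 (log2 Mir487b over Mir411 0.09 ± 0.146).

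Mir409 and Mir369 followed, 2 hairpins near the end of the array. Mir409, known from cell migration and invasion in tumours, held 5008 and 4269 CPM (4638 ± 522). Mir369 held 4070 and 3853 CPM (3962 ± 154). In both libraries Mir411 exceeded Mir409 by about the same factor (log2 0.62 ± 0.0193), and Mir409 exceeded Mir369 (log2 0.22 ± 0.107).

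Mir379, the first row of the array, held 2692 and 2411 CPM (2552 ± 199). Mir382 held 2385 and 2050 CPM (2218 ± 237) and Mir541 held 2124 and 2100 CPM (2112 ± 17.5). These last 2 changed places between the libraries (log2 0.07 ± 0.143), whereas Mir379 lay above Mir382 in both (log2 0.20 ± 0.0420). Mir381 held 1848 and 1896 CPM (1872 ± 33.9), Mir376a 1359 and 1321 CPM (1340 ± 26.9) and Mir299a 1121 and 1029 CPM (1075 ± 65.0). Each of these lay below the row before it in both libraries.

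Mir409, Mir376a, Mir299a and Mir380 have no row of their own. GENCODE M21 places each of them on the plus strand across a minus-strand row: Gm24321 for Mir409, Gm25252 for Mir376a, Mir299b for Mir299a and Gm25750 for Mir380. Counts opposite to these 4 rows were therefore read as the plus-strand miRNA. They made up 19.3% ± 0.466 of the cluster's counts. The assignment rests on strand and overlap, and no source states it. None of the 34 plus-strand rows had a count on the opposite strand in either library. On the strand of the 4 minus-strand rows themselves, Gm24321, Gm25252 and Gm25750 held 0 counts, and Mir299b held 6 counts in replicate 1 and 4 in replicate 2.

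Mir410 and Mir495, known to promote cardiomyocyte proliferation by acting on Cited2, were among the lower rows of the cluster. Mir410 (109743715 to 109743795) held 64.8 and 46.4 CPM (55.6 ± 13.0), and Mir495 held 71.8 and 52.0 CPM (61.9 ± 14.0). Their 3p arms carry different seeds:
miR-410-3p: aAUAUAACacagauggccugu
miR-495-3p: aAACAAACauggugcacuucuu
Together these rows held 0.297% ± 0.0512 of the cluster's counts. Both were higher in replicate 1.

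Of the miRNAs known from vessel growth, Mir487b was the highest. Mir494, also studied in protection of the injured heart, held 251 and 186 CPM (218 ± 45.7). Mir329 held 161 and 168 CPM (164 ± 5.35), and Mir495 is given above. The 4 rows together held 20.4% ± 1.10 of the cluster, nearly all from Mir487b.

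Among miRNAs known from dendrites and synapses, Mir381 was the highest. Mir134, which limits dendritic spine size through Limk1, held 784 and 686 CPM (735 ± 68.9). Mir485, known from control of the synaptic vesicle protein Sv2a, held 152 and 135 CPM (143 ± 11.5). With Mir329, these 4 rows held 7.42% ± 0.336 of the cluster.

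In the miR-376 family, whose precursors are known targets of A-to-I editing in the brain, the rows were far apart. Mir376c held 106 and 105 CPM (106 ± 0.695), and Mir376a exceeded it 12.6-fold (log2 3.66 ± 0.0195). Mir376b has no row and was not analysed here. A mature arm of Mir376c shares a run of 18 bases with the hairpin of Mir376b. Whether reads were lost to multiple mapping there was not tested.

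Mir154, known from fibrotic lung, held 499 and 477 CPM (488 ± 16.2). Mir377, known to raise fibronectin in the diabetic kidney, held 65.5 and 52.5 CPM (59.0 ± 9.22). With Mir409 they held 13.2% ± 0.612 of the cluster. Mir539, studied in mitochondrial fission of heart muscle cells, held 94.6 and 66.6 CPM (80.6 ± 19.8). Mir758, which acts on the cholesterol transporter Abca1, held 9.16 and 15.7 CPM (12.4 ± 4.65) and was the only row at 10 CPM or more by mean that did not reach it in both libraries.

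Neighbouring hairpins differed strongly in level. Of 37 neighbouring pairs, 28 had more than 3 counts in each library for both rows. Their median difference was 6.07-fold, 17 of them differed by more than 4-fold, and in all 28 the ratio on the log2 scale exceeded the SD of the 2 libraries. Levels of the rows in these pairs ran from 12.4 CPM (Mir758) to 7566 CPM (Mir487b). Rows that are not neighbours were not compared in this way, so whether the differences are particular to neighbours was not tested. Mir487b exceeded Mir539, 715 nucleotides downstream, 95.3-fold (log2 6.58 ± 0.361).

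The end of the array shows such differences at close range. Mir412 lies 52 nucleotides after the row of Mir409 and 50 nucleotides before Mir369, and held only 102 and 89.1 CPM (95.5 ± 9.11). Mir409 exceeded it by 49.1-fold in replicate 1 and 47.9-fold in replicate 2 (log2 5.60 ± 0.0250). Mir369 exceeded Mir410, 219 nucleotides further on, by 62.8-fold and 83.1-fold (log2 6.17 ± 0.286). In both libraries, then, the 4 hairpins ran high, low, high, low. Mir679 and Mir1193 are separated by 21 nucleotides, the smallest gap among these pairs. Mir679 held 83.5 and 74.5 CPM (79.0 ± 6.34), against 801 and 651 CPM (726 ± 106) for Mir1193.

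High and low rows lay both before and within the annotated host transcript. Mirg, a long noncoding RNA of the domain, spans the last 14 rows from Mir382 to Mir3072 in GENCODE M21. Of these, 4 lie inside an exon, 5 in an intron and 5 across an exon edge, among them Mir382 and Mir369. No host gene is annotated for the first 24 rows, from Mir379 to Mir544. The rows within Mirg held 37.2% ± 0.519 of the cluster's counts with a median of 119 CPM, and the rows before it held 62.8% ± 0.519 with a median of 191 CPM. Over the 33 rows at a mean of 10 CPM or more, Spearman's rho between level and distance from Mir379 was -0.14. With GC content of the hairpin, which ran from 29.1% (Mir376c) to 72.3% (Mir3072), rho was -0.12 over 32 rows. These coefficients are descriptions across rows of 1 primary locus.

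Rows with a common seed did not share a level. Mir411 exceeded Mir379, with which it shares the 3p seed, in both libraries (log2 Mir379 over Mir411 -1.48 ± 0.0310). Mir379 exceeded Mir1193, with which it shares the 5p seed (log2 1.82 ± 0.0983), and Mir494 exceeded Mir410 (log2 1.98 ± 0.0374). Mir496a, at 85.3 and 72.9 CPM (79.1 ± 8.78), shares a seed with Mir453, which held 0 counts in both libraries. A row adds the reads of both arms, so the arm behind each value is not known.

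Mir381 and Mir300 make 3p arms that share 16 bases but have different seeds:
miR-381-3p: uAUACAAGggcaagcucucugu
miR-300-3p: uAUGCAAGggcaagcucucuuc
Mir300 held 326 and 303 CPM (314 ± 16.4), and Mir381 exceeded it 5.67-fold in replicate 1 and 6.26-fold in replicate 2 (log2 2.57 ± 0.101). The longest run that a listed mature arm shares with any other mouse hairpin was 8 to 13 bases in 29 of the 33 rows at 10 CPM or more. It was 16 in Mir300 and Mir381, 18 in Mir376c and 21 in Mir299a, whose partner is Mir299b on the other strand of the same place. Over 33 rows, rho between that run and the level was -0.02.

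**Figure D2:**
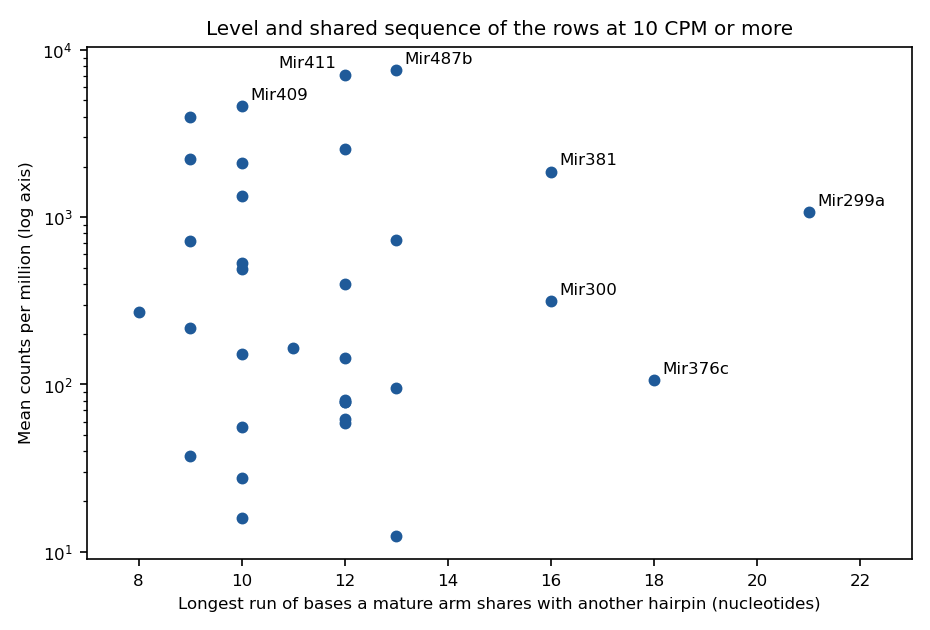
Mean level in CPM (log axis) of the 33 rows at 10 CPM or more, against the longest run of bases that 1 of their listed mature arms shares with another mouse hairpin. Mir299a, at a run of 21 bases, lay at 1075 CPM, and rows with runs of 13 bases or fewer spread from Mir758 to Mir487b.

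The other rows of medium level were Mir380 (546 and 519 CPM), Mir543 (417 and 385 CPM), Mir323 (309 and 237 CPM) and Mir667 (164 and 140 CPM), each lower in replicate 2. The rows below 10 CPM were Mir544, Mir1197, Mir654, Gm27379 and Mir453. Mir544 had 3 counts in replicate 1 and 9 in replicate 2, and Mir1197 had 2 and 9. Mir654 had 4 and 0 counts, and Gm27379 had 1 and 2. Mir453 had 0 counts in both, and the limit that 3 counts set was 0.539 CPM in the first library and 0.497 CPM in the second. Of the rows that passed 10 CPM by mean, Mir3072 (18.5 and 13.4 CPM), Mir666 (28.5 and 26.3 CPM) and Mir668 (38.2 and 36.3 CPM) were the lowest after Mir758. Mir666 lies next to Mir1193, and Mir668 next to Mir134, both among the higher rows.

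The libraries differed at 1 of the 33 rows tested. Each row was compared with a two-sided exact binomial test on its counts in the 2 libraries, adjusted over all 291 tested rows of the table by the Benjamini-Hochberg method, and a call required a 1.5-fold ratio as well as an adjusted p below 0.05. Of all rows tested, 5.84% were called (4.81% higher in replicate 1 and 1.03% higher in replicate 2), so 1 of 33 is near the background. Mir758 was the row called. It was lower in replicate 1 (51 against 95 counts, a log2 ratio of replicate 1 to replicate 2 of -0.72, with an adjusted p of 0.00318 by the exact binomial test). The call ended with a pseudocount of 5 CPM in the ratio, where the log2 ratio was -0.55. Among the cell type miRNAs listed above, the liver miRNA Mir122 was called lower in replicate 1 (log2 -1.55). The neural miRNAs Mir137 (log2 0.65) and Mir129-2 (log2 0.73) were called higher in replicate 1. The comparison is one of these libraries, not of conditions, and its p-values cover counting error only, not variation between biological replicates.

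Smaller differences mostly went the other way. Of the 33 rows, 29 (87.9%) had a ratio above 0, against 66.3% of all rows tested, and the median log2 ratio was 0.16 against 0.10. With TMM scaling, which moved the median of all rows by 0.10 to 0.00, 22 of the 33 rows (66.7%) lay above 0, against 50.5% of all rows, and their median was 0.06. An adjusted p under 0.05 at any ratio was reached by 21 of the 33 rows on total counts, where the share over all rows was 61.5%. Of the 21, 20 were higher in replicate 1 (95.2%), against 70.4% of all rows that passed. As a share of rows tested this was 60.6% of the cluster, against 43.3% of all rows.

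The rows nearest to a call were low or medium ones. Mir539 had a log2 ratio of 0.50, Mir410 of 0.47, Mir495 of 0.46, Mir3072 of 0.44 and Mir494 of 0.43, all below the 0.58 that a ratio of 1.5 requires. Besides Mir758, a ratio below 0 was found at Mir329 (-0.07), Mir381 (-0.04) and Mir487b (-0.0032). Mir381 and Mir487b lie next to each other, and none of these 3 passed 0.05 after adjustment.

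**Figure D3:**
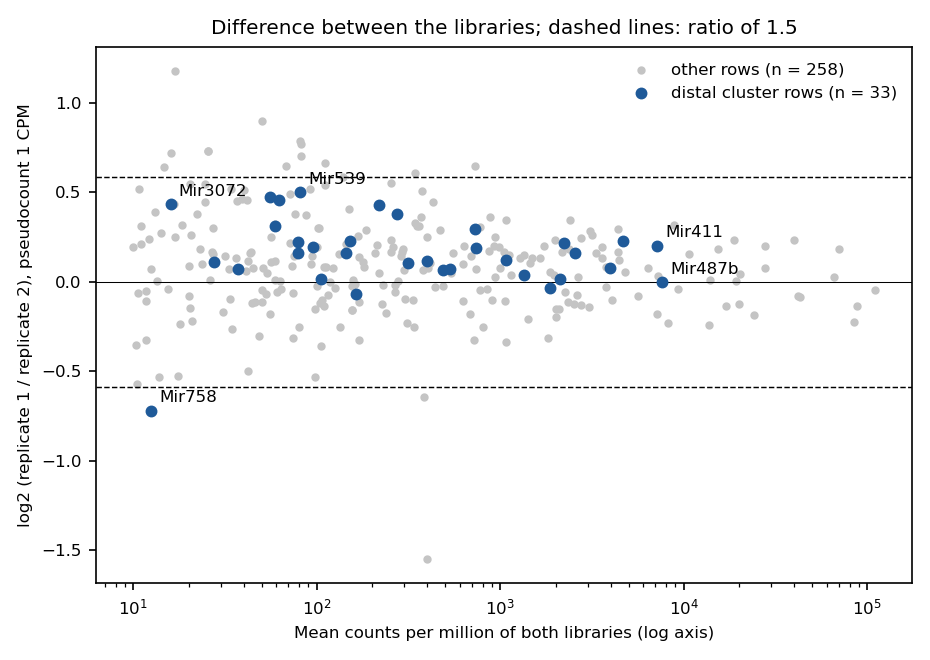
Log2 ratio of replicate 1 over replicate 2 against mean CPM (log axis), for the 33 tested rows of the cluster in blue and the 258 other tested rows in grey. Mir758 lies beyond the dashed line for a ratio of 1.5, and the other 32 blue points lie between the lines, 29 of the 33 above 0.

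The proximal part of the same domain, 20 rows between 109.54 and 109.7 Mb around Meg3, Rtl1 and Rian, took 1.32% and 1.22% of sense counts (1.27% ± 0.0666). Its highest row was Mir127, which lies antisense to Rtl1, at 4896 and 4719 CPM (4807 ± 125). The distal rows held 3.09 times the counts of the proximal ones, with 3.11 in replicate 1 and 3.08 in replicate 2 (log2 1.63 ± 0.0100). Per row the medians were 158 CPM and 88.6 CPM, and 13 of 20 proximal rows reached 10 CPM in both libraries. These values count the minus-strand row of Mir3071 on its opposite strand, with 0 and 2 counts, whereas its sense strand held 929 and 1098 counts. With the sense counts of Mir3071, a reading added after the data were seen, the proximal median was 138 CPM and 14 of 20 rows reached 10 CPM.

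A further array, in the imprinted gene Sfmbt2 on chromosome 2, served as a second comparison. Its 107 rows took 0.340% and 0.323% of the counts (0.331% ± 0.0118), and the distal Dlk1-Dio3 rows held 11.9 times as many (log2 3.57 ± 0.0343). Only 6 of these rows reached 10 CPM in both libraries, and 81 had no count. Both differences were larger than their SD between the libraries. The smallest p of an exact permutation test by sign flips is 0.5 at n = 2, so neither can be called significant. Sfmbt2 miRNAs are near copies of each other, and reads that map to several places form a class of their own in these tables, 26.9% and 28.0% of all reads. Its part in the difference was not tested.

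**Figure D4:**
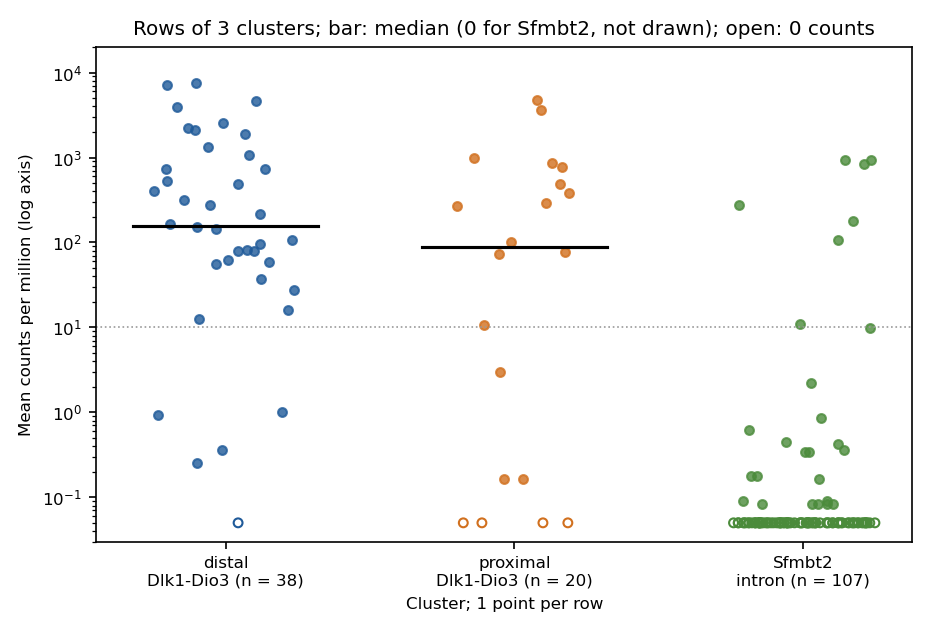
Mean CPM (log axis) of every row of the distal Dlk1-Dio3, proximal Dlk1-Dio3 and Sfmbt2 intron clusters, 1 point per row, with a bar at the median and open symbols for rows with 0 counts. The medians are 158 and 88.6 CPM for the Dlk1-Dio3 parts (138 CPM for the proximal part with the sense counts of Mir3071), and 81 of the 107 Sfmbt2 rows hold no count.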

How the data were processed

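MicroRNA-seq reads from embryonic heart were deposited by the authors as whole-number counts per miRNA gene, and mm10 and GENCODE M4 are named in the deposited notes. For the aligner, the counting tool and the trimming, the choice is not given in the sources used here. Reads outside gene rows (unmapped, multi-mapping, outside any row) made up 21.2%, 26.9% and 3.60% of replicate 1 and 17.2%, 28.0% and 2.92% of replicate 2, and stayed out of library sizes. That gene rows hold no multi-mapping read is assumed, not stated by any source.

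Rows were placed by GENCODE M21, which matched 1894 of 1973 identifiers. Sense counts were used at plus-strand rows and opposite counts at minus-strand rows of the Dlk1-Dio3 domain, as CPM on summed sense counts. Opposite counts were likewise used at rows of the Sfmbt2 array that lie against the strand of Sfmbt2. A read covers a mature strand, so levels were not divided by row length. Cloning efficiency differs between small RNA sequences and is not measured here. Intervals, limits and p-values of the binomial test cover counting error at most, and PCR copies are not independent molecules. Tests covered rows at a mean of 10 CPM or more; ratios carry a pseudocount of 1 CPM. Simulated counts with counting error only were used to test this comparison. They held no further variation between libraries, so they cannot show how the test behaves where such variation exists. Whether the biosamples came from separate litters is not stated, so spreads between the libraries may be partly technical.

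Named rows were the 10 highest, those called, the first and last, those on the minus strand, those sharing a seed, and rows of 6 lists of known roles; others were chosen after their values were seen. Members, lists and tests were chosen with earlier results of these data known. Alternatives covered strand, scaling (TMM in edgeR 4.0.16, size factors in DESeq2 1.42.0, R 4.3.3), minimums, pseudocount, ratio, denominator, members and each library. Python 3.11.15, scipy 1.17.1, pandas 2.3.3, numpy 2.4.6 and matplotlib 3.10.9 were used.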

Additional observations from a re-analysis of the deposited data

Results flagged for a closer look

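The row of Mir299b is read here on its opposite strand, as Mir299a. On its own strand it held 6 counts in replicate 1 and 4 in replicate 2 (1.08 and 0.662 CPM), above the 3 counts that a count of 0 allows. These counts lie outside the comparisons above. The opposite strand, read as Mir299a, held 6246 and 6217 counts. A mature arm of Mir299a shares a run of 21 bases with the hairpin of Mir299b. Whether reads of Mir299a were counted on the strand of Mir299b was not tested. The groups hold too few libraries for a check of single libraries that stand apart.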

How the results depend on the processing

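The cluster's share was 3.17% with the sense counts of every row, 1.87% of all reads, and 3.17% without Mir487b. It ran from 3.77% to 4.10% with 1 library left out, and both-strand counts and the rows from Mir379 to Mir410 moved it by less than its SD. The number of rows called between the libraries was 0 at a minimum of 50 CPM, where Mir758 is not tested, 0 with a pseudocount of 5 CPM, 0 at a ratio of 2 and 21 with no minimum ratio; Mir758 was the 1 row called in the other 6 settings. The log2 ratio of distal over proximal share was 1.30 with sense counts of every row, 1.61 with both strands, 2.01 without the highest row of each, and 1.61 with sense counts at the row of Mir3071, an alternative chosen after the data were seen. That of distal over Sfmbt2 was 3.26 with sense counts. Among the 237 alternatives computed, only those for log2 ratios could reverse in direction, and none did. Of the 215 for values with an SD, 169 stayed within it, and of the 22 for counts of rows, 18 stayed within 1.5 times. Many of the 169 could not have moved beyond the SD. With n = 2, leaving out a library always moves a mean by less than the SD. Strand settings cannot change the level of a plus-strand row, since these rows held no opposite counts. Of 190 alternatives for levels of single rows, 38 moved by more than the SD, 34 with all reads as denominator and 4 with sense counts at the minus-strand rows. At this depth, ratios at rows of 10 CPM or less rest on few counts. With 2 libraries an SD is itself imprecise.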
